A study of Mus musculus with 2 samples.

Results

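The posterior growth zone is the tissue at the tail end of the embryo that adds new trunk and tail, and the presomitic mesoderm is the unsegmented mesoderm it lays down. The 10 genes of these tissues described here are Cdx1, Cdx2, Cdx4, T, Tbx6, Msgn1, Nkx1-2, Evx1, Sp5 and Rspo3. Their probe sets were taken as every probe set that the platform annotation assigns to exactly 1 gene symbol, that symbol being a member. This gave 13 probe sets for 9 of the 10 genes, out of 45101 probe sets and 18193 genes on the array. T (brachyury) had no probe set under this rule and was not analysed here. No probe set that lists several symbols included a member. By RefSeq (GRCm38.p6), Cdx1 lies on chromosome 18, Cdx2 on 5, Cdx4 on X, Tbx6 and Nkx1-2 on 7, Msgn1 on 12, Evx1 on 6, Sp5 on 2 and Rspo3 on 10.

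Both groups were mouse embryos at 8.5 days post coitum (dpc), taken whole. The matUPD18 embryos carried 2 maternal copies of chromosome 18 and no paternal one, and the patUPD18 embryos carried 2 paternal copies and no maternal one. Each genotype was measured on 1 array, and the sources used here give neither strain background nor the number of embryos behind each RNA. Therefore no value below has a replicate error, no test between the genotypes was possible, and precision is limited by the number of arrays.

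In the growth zone, progenitors are kept dividing by Wnt and FGF signals, and T, the Cdx factors and their Wnt-responsive partners hold cells in this state. Cells that leave towards mesoderm switch on Tbx6 and then Msgn1, and the presomitic mesoderm is cut into somites under the segmentation clock. Cdx proteins also activate trunk Hox genes, which give the axis its regional identity. At 8.5 dpc the trunk is being laid down and these tissues form the tail end of the embryo.

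Signals are MAS5 intensities on a linear scale. A signal under the 40th percentile of its array (84.2 for matUPD18 and 82.5 for patUPD18) was raised to that floor before a ratio was taken, and no ratio is given where both signals lay under it. A gene counted as measurable if its larger signal was at or above the 60th percentile of that array (190.1 for matUPD18 and 185 for patUPD18). Ratios are log2 of matUPD18 over patUPD18, and a gene is read by its brightest probe set. Of the 9 genes, 4 were measurable (Cdx2, Msgn1, Nkx1-2 and Rspo3) and 5 were not (Cdx1, Cdx4, Tbx6, Evx1 and Sp5). Of the 13 probe sets, 4 lay under the floor on both arrays.

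Across all 10483 measurable genes the median log2 ratio was -0.04, with quartiles of -0.31 and 0.26, so lower and higher readings were near even. As a yardstick of technical disagreement, log2 ratios within genes that have several measurable probe sets had a pooled SD of 0.44, which holds no variation between embryos. Impact, the paternally expressed gene of chromosome 18, read 328 in matUPD18 and 2466 in patUPD18 by its brightest probe set, the direction that the labels call for. A dimmer measurable probe set of it gave 268 in matUPD18 and 205 in patUPD18. All 11 bacterial and phage hybridisation control probe sets read lower in matUPD18, with a median log2 ratio of -0.50. Scaling to them moved the median of all measurable genes to 0.47, so the ratios below are relative to the bulk of genes. Under the deposited scaling 60.2% of genes past 2-fold were higher in matUPD18, against 97.3% under scaling to these controls.

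Of the 9 genes with a probe set 4 were measurable, and 2 of these, Cdx2 and Msgn1, read at least 2-fold lower in matUPD18. None read at least 2-fold higher. Among all measurable genes 1.78% were at least 2-fold lower in matUPD18 and 2.70% at least 2-fold higher. At 1.5-fold the lower members were again Cdx2 and Msgn1 and none was higher, against 8.74% of measurable genes lower and 9.97% higher. Msgn1 was measurable only through the patUPD18 array, so it could be counted only as lower in matUPD18. Over the 8 genes with a ratio the median log2 ratio was -0.10, with 4 above 0 and 4 below. That median is near the one of all genes with a ratio, measurable or not (-0.03), but 4 of the 8 genes behind it were not measurable. The 4 measurable members had log2 ratios of -1.64 (Cdx2), -1.30 (Msgn1), -0.30 (Rspo3) and 0.34 (Nkx1-2). The median of the 8 thus rests in part on dim genes and does not describe the measurable members. Fewer cells of a tissue and less RNA per cell cannot be told apart in whole embryos.

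**Figure D1:**
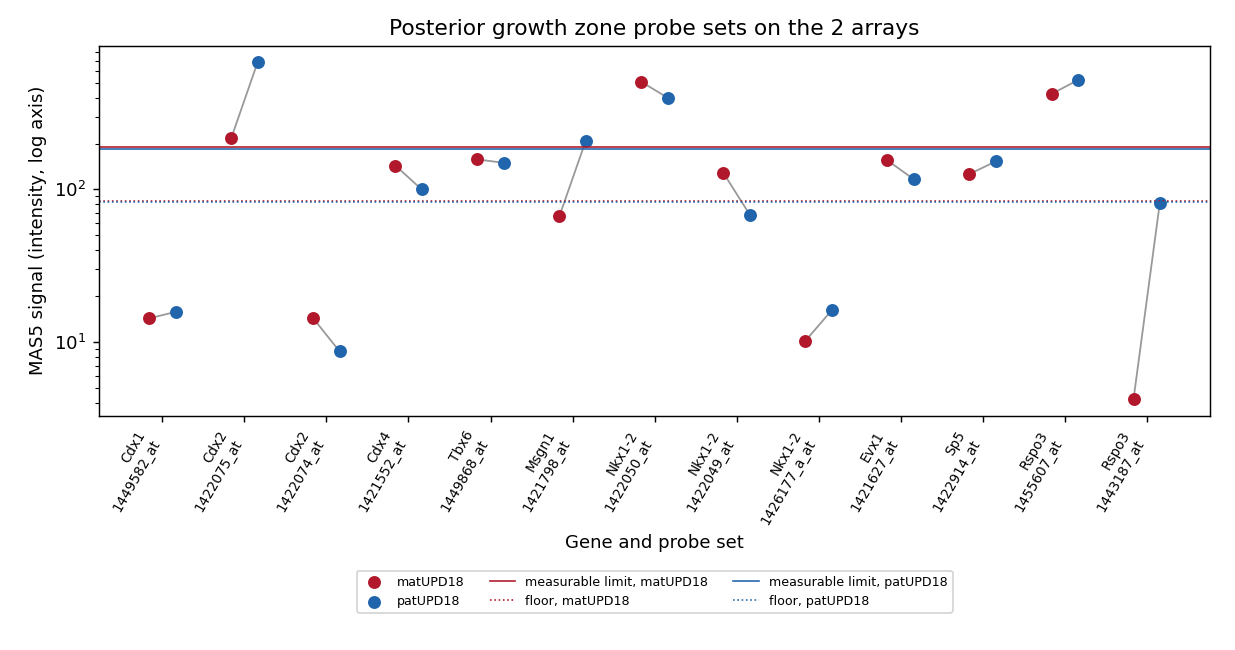
MAS5 signal (log axis) of each of the 13 probe sets on the matUPD18 array (red, left of each pair) and the patUPD18 array (blue, right), with the measurable limit (solid lines) and the floor (dotted lines) of each array, which nearly coincide. Only 4 probe sets reach the limit on an array, and the lines joining the pairs for Cdx2 (218 and 681) and Msgn1 (66.8 and 208) are the steepest among these.

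The promoters of Cdx2 and Msgn1 are shown because these genes were the members past 2-fold. Each run is the 250 bases before the annotated transcript start, 5′ to 3′ along the gene, from RefSeq (GRCm38.p6). Both genes lie on the minus strand, Cdx2 at chr5:147307250-147307499 and Msgn1 at chr12:11208949-11209198. Capitals mark matches on either strand to the letters CTTTGAT or CTTTGAA (bound by TCF/LEF factors, which carry the Wnt signal), TTTATG or TTTATT (bound by Cdx factors) or AGGTGT (bound by T-box factors).
Cdx2: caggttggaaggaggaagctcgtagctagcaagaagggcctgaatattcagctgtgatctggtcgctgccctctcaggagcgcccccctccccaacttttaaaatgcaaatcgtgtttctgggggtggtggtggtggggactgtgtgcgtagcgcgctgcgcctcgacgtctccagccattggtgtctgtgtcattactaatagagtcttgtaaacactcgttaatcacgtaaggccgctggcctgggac
Msgn1: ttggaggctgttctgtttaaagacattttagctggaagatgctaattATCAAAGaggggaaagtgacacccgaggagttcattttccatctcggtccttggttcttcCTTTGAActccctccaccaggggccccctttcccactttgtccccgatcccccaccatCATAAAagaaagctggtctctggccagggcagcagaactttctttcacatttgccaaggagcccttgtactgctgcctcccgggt

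The Msgn1 window held 2 TCF/LEF matches, which begin 203 and 143 bases before the start, and 1 Cdx match that begins 85 bases before it. The Cdx2 window held no match to any of these letters. Promoters of 8 members were in the table, T among them, and Cdx1 and Rspo3 were not. TCF/LEF letters were found in 3 of the 8 (T, Msgn1 and Sp5), against 7.48% of all 32851 promoter windows of this length. Cdx letters were found in 3 of the 8 (T, Msgn1 and Evx1), against 25.5% of all windows, and T-box letters in 3 of the 8 (Cdx4, T and Evx1), against 11.8%. No matches overlapped in the Msgn1 window, while the 2 Cdx matches of Evx1, which begin 229 and 224 bases before its start, share a base. A match is a stretch of letters and was not shown to be a binding site.

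The Cdx genes encode homeodomain factors that drive axis elongation. Cdx2, which also specifies the hindgut and the trophoblast, read 218 in matUPD18 and 681 in patUPD18 (probe set 1422075_at), so it was 3.13-fold lower in matUPD18 with a log2 ratio of -1.64. Both signals reached the measurable limit of their arrays. This ratio is 3.74 times the pooled SD between probe sets of a gene. Of the 500 measurable genes nearest to it in mean signal, 8 (1.60%) were at least 2-fold lower in matUPD18, and none was as low as Cdx2. The other Cdx2 probe set (1422074_at) gave 14.3 in matUPD18 and 8.67 in patUPD18, under the floor on both arrays, and so gave no second reading of the gene.

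The other Cdx genes were not measurable, so neither could show whether the Cdx2 difference was shared. Cdx4, the X-linked member of the family, read 143 in matUPD18 and 100.1 in patUPD18, a log2 ratio of 0.52. Xist, the RNA of the inactive X chromosome, read 1568 in matUPD18 and 128 in patUPD18 by its brightest probe set. Xist was read as a check of the sexes of the embryos, which 1 array per genotype cannot separate from the genotypes. The part of a sex difference in the Cdx4 values or in any other ratio was not tested. Cdx1, a direct target of Wnt and retinoic acid signals, is the only member on chromosome 18, the chromosome whose parental origin differs. It read 14.3 in matUPD18 and 15.7 in patUPD18, under the floor on both arrays, so a parental difference in Cdx1 could not be measured here.

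Tissues other than the growth zone also make Cdx2, and their part in the Cdx2 values was not tested. None of their measurable markers was past 2-fold. Of 9 hindgut and gut endoderm markers 6 were measurable, and all 6 read higher in matUPD18, with log2 ratios of 0.12 to 0.61. Their summed signal, over the 8 with a probe set, was 5494 in matUPD18 and 4625 in patUPD18. Shh and Foxa2 count both in this list and in the notochord and node list below, so those readings are not separate. The chorion and trophoblast list had 4 of 10 markers measurable and a summed signal of 2161 in matUPD18 and 2274 in patUPD18. Its defining genes Elf5, Esx1, Ascl2 and Tpbpa were not measurable. The allantois list had 5 of 8 markers measurable, with sums of 1604 in matUPD18 and 1486 in patUPD18. Its defining gene Tbx4 lay under the floor on both arrays, and Hand1 counts both in this list and in the chorion and trophoblast list.

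The mesoderm side of the zone was read by Tbx6 and Msgn1. Msgn1, a basic helix-loop-helix factor that drives presomitic mesoderm to mature, read 66.8 in matUPD18 and 208 in patUPD18. With the matUPD18 signal raised to the floor it was at least 2.47-fold lower in matUPD18, with a log2 ratio of -1.30. The mean of these signals lies under both measurable limits. A gene this dim passes the filter only if 1 array reaches its limit while the other lies well under it. The filter itself thus makes such differences common among measurable genes of like signal, and the counts below do not measure noise. Of the 500 measurable genes of like mean signal, 75 (15.0%) were at least 2-fold lower in matUPD18 and 27 were as low as Msgn1. With the floor at the 60th percentile the Msgn1 ratio was -0.13, because the patUPD18 signal lay just above that level. Tbx6, the T-box factor that turns progenitors from neural to mesodermal fate and acts upstream of Msgn1, did not show the same difference. It read 157 in matUPD18 and 149 in patUPD18, a log2 ratio of 0.07 between signals that were not measurable, and under loess scaling it was within rounding of 0.

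**Figure D2:**
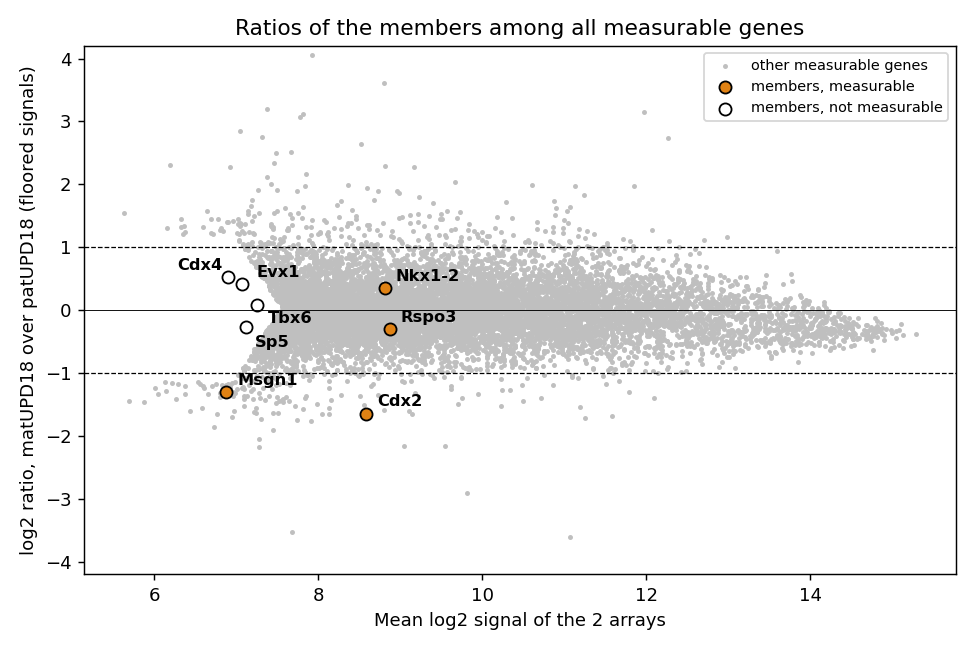
Log2 ratio (matUPD18 over patUPD18, floored signals) against the mean log2 signal of the arrays for every measurable gene (grey), the 4 measurable members (orange) and the 4 members with a ratio that were not measurable (open); dashed lines mark 2-fold. Cdx2 (-1.64) lies at the lower edge of genes of its signal, while Msgn1 (-1.30) lies among many dim genes as far from 0. At that signal a gene passes as measurable only if its signals on the arrays lie far apart.

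Nkx1-2 and Evx1, other genes of the progenitors, lay within 2-fold by their brightest probe sets, though only Nkx1-2 was measurable. Nkx1-2, a homeobox gene of the epiblast beside the primitive streak, where progenitors of spinal cord and mesoderm lie, read 507 in matUPD18 and 399 in patUPD18 (1422050_at), a log2 ratio of 0.34. Of 500 genes of like signal 91 were as high. A dimmer probe set (1422049_at) gave 128 in matUPD18 and 68.4 in patUPD18. The last (1426177_a_at) gave 10.2 in matUPD18 and 16.1 in patUPD18, under the floor on both. Evx1, a homeobox gene of the primitive streak, read 155 in matUPD18 and 117 in patUPD18, a log2 ratio of 0.41 between signals that were not measurable. Nkx1-2, Evx1 and Cdx4 thus leaned to matUPD18, each by less than 2-fold, under all the scalings tried except that Cdx4 reached 1.02 under scaling to the hybridisation controls.

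The Wnt-related members also lay within 2-fold. Rspo3, a secreted protein that strengthens Wnt signals at the receptor, read 423 in matUPD18 and 521 in patUPD18 (1455607_at), a log2 ratio of -0.30, and 104 of 500 genes of like signal were as low. Its other probe set (1443187_at) gave 4.22 in matUPD18 and 81.3 in patUPD18, both under the floor, so that gap was not read as a fold. Sp5, a zinc finger factor and direct Wnt target, read 126 in matUPD18 and 153 in patUPD18, a log2 ratio of -0.27 between signals that were not measurable. Both leaned to patUPD18 under the deposited, median, quantile and loess scalings, and both turned sign under scaling to the hybridisation controls (0.20 for Rspo3 and 0.23 for Sp5).

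**Figure D3:**
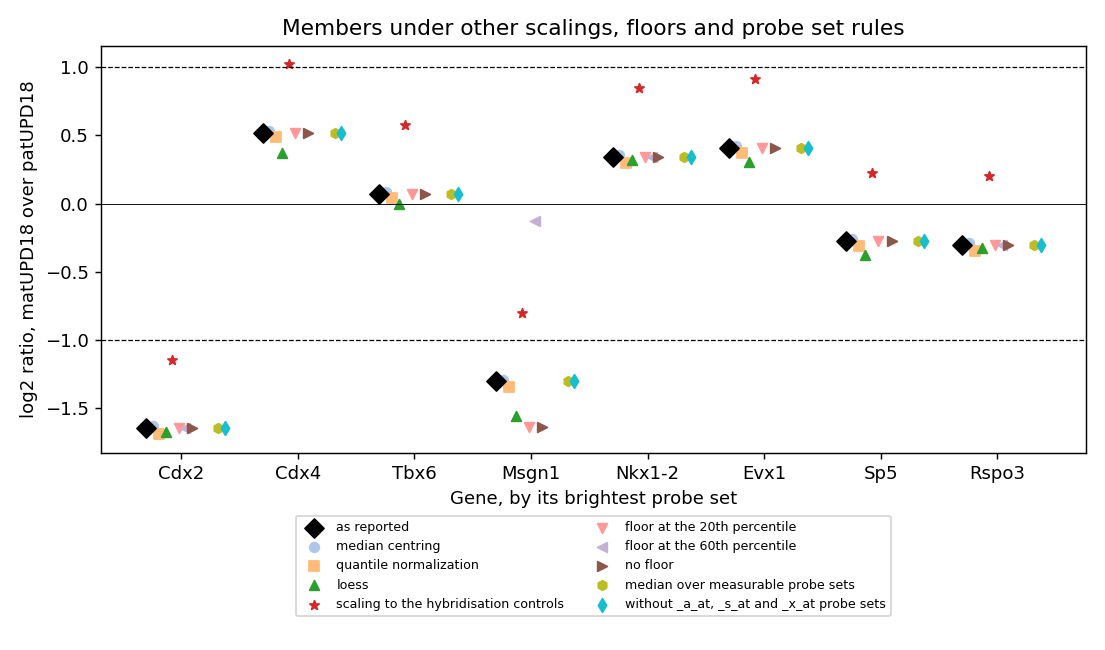
Log2 ratio (matUPD18 over patUPD18) of the 8 members with a ratio as reported (black diamonds) and under other scalings, floors and probe set rules (coloured marks); dashed lines mark 2-fold and a mark is left out where both signals lay under the floor. Cdx2 stays below -1 throughout, from -1.69 to -1.15, while Msgn1 spans -1.63 to -0.13.

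Related genes were read from 7 lists, and their counts stand beside the background shares of 1.78% lower and 2.70% higher given above. The medians of the FGF, primitive streak and Hox lists kept their sign under all the alternatives run, and each of the other 4 turned sign under at least 1. Among 9 Wnt ligands and R-spondins of the tail, 5 were measurable and none was past 2-fold, with a median log2 ratio of 0.05. Wnt5a and Wnt11, ligands that direct cell movement, marked the ends of the list. Wnt5a read 699 in matUPD18 and 951 in patUPD18, and Wnt11 read 299 in matUPD18 and 219 in patUPD18. Wnt3a, the main ligand of the growth zone, was not measurable.

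The receptors of R-spondins and the feedback targets of Wnt showed both directions. Of 13 genes 9 were measurable, with 1 at least 2-fold lower in matUPD18, 2 at least 2-fold higher and a median log2 ratio of -0.11. Znrf3, the ubiquitin ligase that removes Wnt receptors and is held back by R-spondins, read 962 in matUPD18 and 366 in patUPD18, 2.63-fold higher in matUPD18. Of 500 genes of like signal 4 were as high. Sp8, a zinc finger factor related to Sp5, read 529 in matUPD18 and 256 in patUPD18, 2.07-fold higher, with a log2 ratio that fell just short of 2-fold under quantile normalization. Nkd2, an inhibitor of Wnt signals within the cell, read 249 in matUPD18 and 512 in patUPD18, 2.05-fold lower in matUPD18, but a dimmer measurable one of its probe sets gave 259 in matUPD18 and 217 in patUPD18, in the opposite direction.

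Of 16 FGF and retinoic acid genes 11 were measurable, with a median log2 ratio of 0.28 and 1 gene past 2-fold. That gene was Fgf4, a growth factor of the primitive streak, which read 62.0 in matUPD18 and 256 in patUPD18, at least 3.04-fold lower in matUPD18. It was measurable only through the patUPD18 array, and its log2 ratio was -0.43 with a 60th percentile floor. Its other 3 probe sets lay under the floor on both arrays. Fgf8, the FGF ligand that is graded along the presomitic mesoderm, was not measurable. Of 12 genes of neuromesodermal progenitors 7 were measurable and none was past 2-fold. Their median was 0.13, but -0.47 with the measurable limit at the 70th percentile and -0.07 with no filter on low values. The ends of that list were Lin28a, an RNA-binding factor that blocks let-7, with 513 in matUPD18 and 815 in patUPD18, and Gbx2, a homeobox gene, with 259 in matUPD18 and 181 in patUPD18. Of 9 primitive streak genes only Tdgf1 (Cripto, the Nodal co-receptor) and Fst (follistatin) were measurable, with log2 ratios of 0.46 and 0.50, though a dimmer Fst probe set gave 462 in matUPD18 and 615 in patUPD18.

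Of 22 segmentation clock and somite genes 15 were measurable, with 1 past 2-fold and a median log2 ratio of -0.07, near that of all genes. Hes7, the oscillating repressor of the clock in presomitic mesoderm, read 115 in matUPD18 and 310.5 in patUPD18, 2.70-fold lower in matUPD18. It was measurable only through the patUPD18 array, so it too could be counted only as lower in matUPD18. Its log2 ratio was -0.71 with a 60th percentile floor and -0.93 under scaling to the hybridisation controls, within 2-fold. Log2 ratios in the list ran from -1.43 to 0.996, with 7 above 0 and 8 below.

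Of the 7 lists, trunk and tail Hox genes had the median furthest from that of all genes. Of 18 genes 10 were measurable, 3 were at least 2-fold lower in matUPD18 and none was at least 2-fold higher. Of the 10, 9 read lower in matUPD18, while lower and higher readings were near even among all measurable genes. Their median log2 ratio was -0.71, and it ran from -0.75 to -0.23 over the alternatives. Over every listed Hox gene with a ratio, measurable or not, the median was -0.48. Hoxc8 read 229 in matUPD18 and 587 in patUPD18, 2.57-fold lower in matUPD18. Hoxd8 read 201 in matUPD18 and 412 in patUPD18, 2.04-fold lower, and its other probe set gave 157 in matUPD18 and 411 in patUPD18. Hoxc10 read 15.0 in matUPD18 and 232 in patUPD18, at least 2.75-fold lower, but was measurable only through the patUPD18 array, and its log2 ratio was -0.29 with a 60th percentile floor. Under scaling to the hybridisation controls Hoxc8 (-0.86), Hoxd8 (-0.53) and Hoxc10 (-0.96) all lay within 2-fold. Hoxc6 (0.26) was the exception in sign. Cdx2 and these Hox genes thus read lower in matUPD18 on the same pair of arrays, and whether they are linked was not tested.

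**Figure D4:**
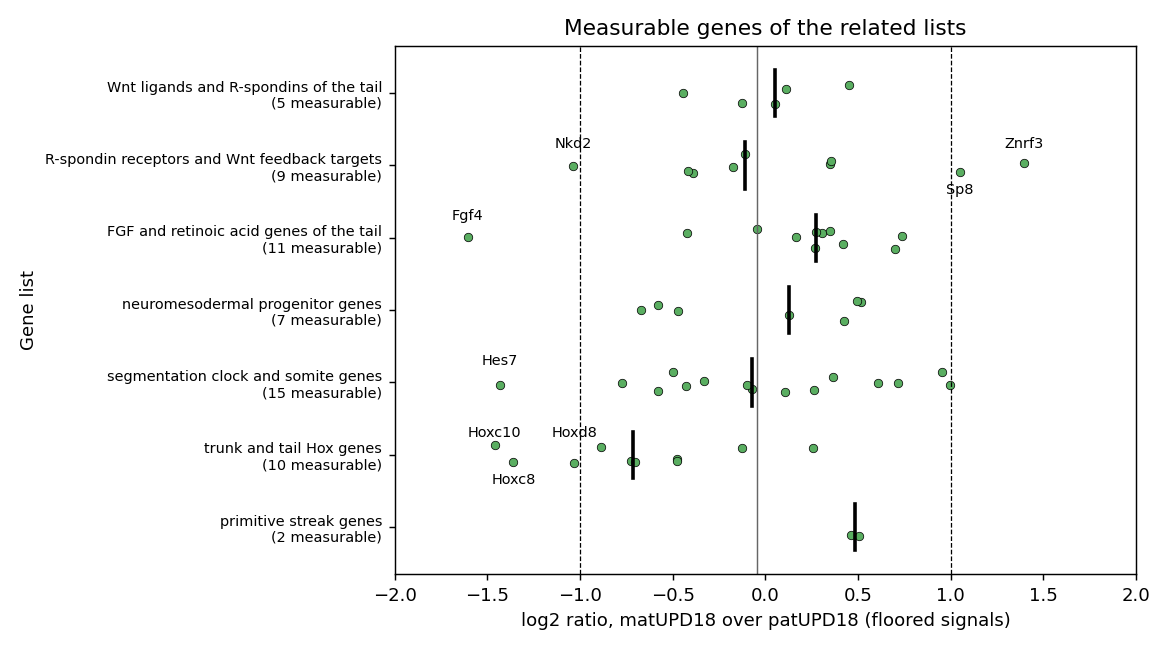
Log2 ratio (matUPD18 over patUPD18, floored signals) of each measurable gene (points) in the 7 related lists, with the list median (black bar), the median of all measurable genes (grey line, -0.04) and 2-fold (dashed lines); genes past 2-fold are named. The trunk and tail Hox list has its median at -0.71, and the other medians lie between -0.11 and 0.48.

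The yolk sac and red cell lists had median log2 ratios of 2.73 and -1.35. All 13 yolk sac visceral endoderm markers were measurable and read higher in matUPD18, 12 of them by at least 2-fold. Of the 12, 9 lay under the measurable limit on the patUPD18 array and so passed only through matUPD18. The list had a summed signal of 35842 in matUPD18 and 5298 in patUPD18. Of 10 primitive red cell markers 9 were measurable and all 9 read lower in matUPD18, 6 by at least 2-fold, with sums of 46292 in matUPD18 and 71322 in patUPD18. Of the 6, 1 passed only through patUPD18. The part of these tissues in the values of Cdx2, Msgn1 and the Hox genes was not tested. Notochord and node markers, from tissue that also makes T, had 4 of 7 genes measurable and sums of 2262 in matUPD18 and 2163 in patUPD18. Chrd, a BMP antagonist named here after its values were seen, was the 1 past 2-fold, with 20.9 in matUPD18 and 198 in patUPD18. It was measurable only through patUPD18 and its log2 ratio was -0.06 with a 60th percentile floor, while Shh and Foxa2 had log2 ratios of 0.16 each.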

How the data were processed

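Per the labels' protocols, whole-embryo RNA went through RiboAmp amplification and biotin labelling before hybridisation, with 1 array per genotype. Such amplification can favour sequence near the 3′ end. The deposited values are signal intensities on a linear scale, from MAS5/GCOS by the submitters' processing notes. Neither versions nor a genome build is stated there, and detection calls were not used. The 2% trimmed mean was 500.003 for matUPD18 and 500.004 for patUPD18, so the authors' values share a scale, and a shift common to most genes could not be seen.

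Of 45101 probe sets, 34958 had exactly 1 gene symbol, 932 had several and 9211 had none listed. The 64 control probe sets, 13 of which carry a symbol, were left out of the genes. Current symbols were looked up through Entrez identifiers, which were found in RefSeq for 34754 of the probe sets with 1 symbol. Floors, the measurable limit, ratios and the 2-fold threshold were applied as stated in the text, with no test. Members and lists were chosen with earlier results of these data known. Named genes were all members, up to 3 per direction past 2-fold in each related list (otherwise its ends), Impact and Xist. Python 3.11.15, pandas 2.3.3, numpy 2.4.6 and statsmodels 0.14.6 were used. The procedure was tested on simulated data with large changes planted in measurable genes of above-median signal. That simulation did not cover changes near 2-fold or dimmer genes.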

Additional observations from a re-analysis of the deposited data

How the results depend on the processing

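Each value was recomputed under 13 alternatives: 4 scalings, 3 floors, 3 measurable limits, 2 probe set rules and a 1.5-fold threshold for counts. No past-2-fold value of a gene named in the text changed sign under those that gave it a value. Of the 9 genes with a probe set, 2 were at least 2-fold lower in matUPD18, and this became 1 (Cdx2) under scaling to the hybridisation controls, with the measurable limit at the 70th percentile and with a 60th percentile floor. It was 2 (Cdx2 and Msgn1) under the other 10 alternatives. No measurable member was at least 2-fold higher under any of the 13. Cdx4, which was not measurable, reached a log2 ratio of 1.02 under scaling to the hybridisation controls. The median log2 ratio of the members was 0.40 under scaling to the hybridisation controls, which moves every gene the same way. The Cdx2 ratio less the median of all measurable genes was -1.61 under that scaling and -1.60 as reported. Counts over all measurable genes were 187 lower and 283 higher in matUPD18 as reported, 37 and 1353 under that scaling, 78 and 189 with a 60th percentile floor, 99 and 203 with a 70th percentile limit, and 916 and 1045 at 1.5-fold. Under that floor Cdx4, Tbx6, Evx1 and Sp5 had no ratio, since both of their signals lay under it. Of 404 values of single genes and lists, 354 moved by less than the pooled SD of 0.44, and 34 of the 50 that moved by more did so under scaling to the hybridisation controls. Much of this tally was fixed in advance. The 3 measurable limits do not enter the ratio of a single gene, and that scaling shifts every gene's ratio by more than the pooled SD. The tally is therefore no measure of robustness. No paired analysis was possible because each genotype has 1 array. Signals near the floor limit what can be read of Cdx1, Cdx4, Tbx6, Evx1 and Sp5.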

Other observations

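Markers of other parts of the embryo were read in the same way. Of 8 neural plate markers 7 were measurable and 2 were past 2-fold, with a median log2 ratio of 0.13 and summed signals of 8001 in matUPD18 and 10336 in patUPD18. The 2, named after their values were seen, were Fabp7, a fatty acid binding protein gene of neural progenitors (317 in matUPD18 and 967 in patUPD18), and Hes5, a Notch target (2199 in matUPD18 and 4777 in patUPD18). Hes5 was within 2-fold under scaling to the hybridisation controls (-0.62) and without probe sets of shared or mixed type (-0.90). Of 8 cardiac markers 7 were measurable and none was past 2-fold, with a median log2 ratio of -0.08 and sums of 39235 in matUPD18 and 44923 in patUPD18.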
